A study of Mus musculus with 12 samples.

Results

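Marginal zone (MZ) B cells were compared with follicular (FO) B cells in mice with 1 floxed and 1 intact Bcl6 allele. The comparison rests on 4 of the 12 arrays of the series, chosen by their labels: 2 MZ arrays and 2 FO arrays of the genotype mb1-cre(+/-)Bcl6(+/flox), called heterozygotes here. The mice were C57BL/6 females, 10 weeks old, and the cells came from the spleen. The other 8 arrays hold both cell types from mb1-cre(+/-)Bcl6(flox/flox) mice (homozygous deletion) and mb1-cre(+/-)Bcl6(+/+) mice (wild-type), 2 arrays for each cell type and genotype. All mice, wild-type ones included, carried the mb1-cre allele, which expresses Cre recombinase from the Cd79a locus throughout the B lineage. The MZ cells were the B220+AA4.1-CD21highCD23low fraction and the FO cells the B220+AA4.1-CD21intCD23+ fraction. Before sorting, magnetic depletion had removed cells with T cell antigens (CD3, CD5, CD90), myeloid antigens (Gr-1, F4/80, CD11b), the erythroid antigen TER119, or CD43, CD138 or CD95. Total RNA was measured on Affymetrix arrays and expressed as log2 values per probe set. Whether replicate arrays stem from different animals is not given, and the p-values cover the variation among these arrays alone, which may be technical.

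Follicular B cells recirculate through blood and lymph and give rise to germinal centres with T cell help. Marginal zone B cells stay at the border of the splenic white pulp, where blood-borne particles arrive, and they respond quickly and largely without T cells. Their development requires NOTCH2 signalling in response to the ligand DLL1, which releases the receptor's intracellular domain to act with the DNA-binding protein RBPJ. They are held in place by sphingosine 1-phosphate receptors and by integrins. BCL6 is a transcriptional repressor known best from germinal centre B cells, and it opposes plasma cell differentiation.

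The 2 MZ arrays correlated at 0.984 over the genes tested and the 2 FO arrays at 0.979, against 0.894 to 0.919 between the cell types. The 3' minus 5' difference of the Gapdh control probe sets, a measure of RNA integrity, lay between -0.14 and 0.25 log2 units on these 4 arrays. It was 6.90 on MZ wild-type replicate 1, which did not enter the heterozygous group means. That array entered the shared estimate of the spread, the choice of probe sets, the filter, quantile normalization and the comparison with wild-type. The lowest deposited value was 2.219 on all MZ arrays and 2.213 on all FO arrays, so the cell types may have been normalized in separate runs. Such a difference in normalization and the cell type cannot be told apart. In sorted populations, fewer cells of a contaminating type and less RNA per cell likewise cannot be told apart.

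The genes behind the sort differed as the gates define, which is a check of the labels and was not tested. Cr2, which encodes CD21, had values of 14.59 and 14.84 on MZ arrays and 12.84 and 13.42 on FO arrays. Fcer2a, which encodes CD23, had 8.85 and 9.50 on MZ arrays and 13.94 and 14.25 on FO arrays. Of 10 pan-B cell genes, which included Ms4a1 (CD20) and Cd79b, 0 were called by limma and their median difference was -0.15 log2 units. Genes of several depleted surface antigens were read above the minimum, while Cd3e, Thy1 (CD90) and Itgam (CD11b) lay near it on all 4 arrays. Sdc1, which encodes CD138, had 2.53 and 2.53 on MZ arrays and 7.99 and 7.09 on FO arrays. Spn, which encodes CD43, had 4.63 and 3.84 on MZ arrays and 7.83 and 7.66 on FO arrays. Fas, which encodes CD95, had 6.32 and 6.75 on MZ arrays and 5.36 and 5.44 on FO arrays. Adgre1, which encodes F4/80, had 3.62 and 2.92 on MZ arrays and 5.71 and 4.64 on FO arrays, and Cd5 had 3.43 and 3.60 on MZ arrays and 2.30 on both FO arrays. Levels of these antigen genes thus differed in either direction between the sorted populations. Cd93, which encodes the AA4.1 antigen excluded from both gates, had 2.45 and 2.33 on MZ arrays and 7.31 and 5.23 on FO arrays.

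Bcl6 itself was lower in MZ than in FO cells by both of its probe sets. The brighter one read 9.44 and 9.38 on heterozygous MZ arrays and 11.91 and 12.11 on heterozygous FO arrays, a difference of -2.60 ± 0.23 log2 units (SE; limma adjusted p = 9.02e-05). The dimmer one lay at the minimum on all 6 MZ arrays of the series and at 4.93 and 4.86 on the heterozygous FO arrays. On FO arrays this dimmer probe set read 2.36 and 2.48 in homozygous deletion and 4.94 and 5.61 in wild-type, so heterozygous FO arrays stood close to the lower wild-type one. The brighter probe set read 8.29 and 8.81 on wild-type MZ arrays and 9.95 and 10.37 on MZ arrays of homozygous deletion. On FO arrays it read 11.95 and 11.65 in wild-type and 12.70 and 12.88 in homozygous deletion. Within each cell type the brighter probe set was thus highest in homozygous deletion. The labels do not say which exons the floxed allele loses, so neither probe set checks the loss of 1 allele.

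Across the transcriptome, MZ and FO cells differed widely. Of 9306 genes tested, 2159 (23.2%) passed an adjusted p of 0.05 in limma, with 925 (9.94%) higher and 1234 (13.3%) lower in MZ cells. Arrays of the cell types did not overlap for 2194 genes higher in MZ cells (23.6%) and 3912 lower (42.0%), all called genes among them. The higher calls were larger, with a median of 1.55 log2 units against -1.06 for the lower calls. At a difference of 1 log2 unit or more, 716 (7.69%) were higher and 665 (7.15%) lower. A difference of 5 log2 units or more was reached by 30 higher and 15 lower genes. For 191 of the higher genes the FO mean, and for 69 of the lower genes the MZ mean, lay within 0.5 of the minimum. There the size of a fold depends on the background correction and the SE can be too small. Of the heterozygous arrays, only those of the higher cell type could bring such genes to the log2 value of 4 required for testing. The same holds for genes that read below 4 on both arrays of 1 cell type. Among those named below are Plxnd1, Prdm1, E2f1, Lfng, Gad1 and Fcgrt. Adjusted p-values given below for both kinds of gene are therefore descriptive.

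The direction of the smaller differences depended on scaling. Over all genes tested the median difference was -0.17 log2 units, and 38.1% of genes were positive. Quantile normalization over the 12 arrays moved this median up by 0.24 and gave 1144 higher and 675 lower calls, or 62.9% higher against 42.8% in the values as deposited. Of the calls of 1 log2 unit or more, 683 of 716 higher and 553 of 665 lower ones were called in the same direction after it, and 0 in the opposite direction. List medians below are to be read against -0.17. List counts are to be read against the 9.94% higher and 13.3% lower calls among all genes tested. When arrays were left out in turn, 1062 of the 2159 calls were kept without MZ replicate 1, 1363 without MZ replicate 2, 1229 without FO replicate 1 and 1237 without FO replicate 2.

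**Figure D1:**
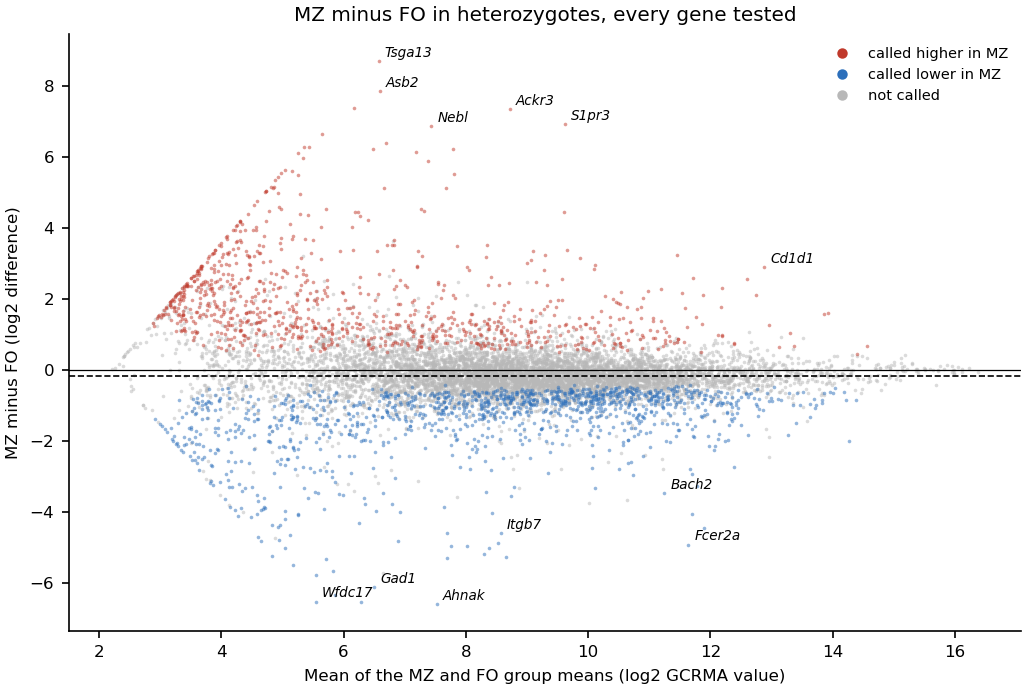
MZ minus FO difference (vertical axis, log2) against the mean level of both group means (horizontal axis, log2 GCRMA value) for the 9306 genes tested in heterozygotes, coloured by limma call; the dashed line is the median of -0.17. The largest differences in both directions lie well away from 0, and the straight left edges are genes with 1 group at the minimum.

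Genes of the marginal zone identity list were higher in MZ cells as a group. The list was chosen with earlier results of these data known, so its count is no independent check. Of 19 tested members of this list, 15 were called higher and 0 lower, with a median of 2.88 log2 units; Cr2, used for the gates, was 1 of the 15. Plxnd1, a semaphorin receptor, had 9.75 and 10.00 on MZ arrays and 3.59 and 3.42 on FO arrays (6.37 ± 0.37 log2 units, or 82.8-fold; adjusted p = 1.05e-05). Myof, the membrane repair protein myoferlin, had 9.95 and 10.55 on MZ arrays and 3.84 and 4.41 on FO arrays (6.13 ± 0.38, adjusted p = 1.45e-05). The tetraspanin gene Cd9, a surface marker of MZ and B1 cells, had 11.89 and 11.78 on MZ arrays and 7.51 and 7.26 on FO arrays (4.45 ± 0.26, adjusted p = 1.12e-05). In each of these 3 genes the replicates lay within 1 log2 unit of each other and far from the other cell type.

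Cd1d1, which presents lipid antigens to NKT cells, was bright in both populations, at 14.27 and 14.37 on MZ arrays and 11.33 and 11.53 on FO arrays (2.88 ± 0.27, or 7.38-fold; adjusted p = 1.34e-04). Cd36, a scavenger receptor for lipids, stood 2.82 ± 0.26 log2 units higher in MZ cells and Dph5, an enzyme of diphthamide synthesis, 3.24 ± 0.31. Asb2, a subunit of an E3 ubiquitin ligase, had 10.21 and 10.81 on MZ arrays and lay near the minimum on both FO arrays, at 2.66. Mzb1, a chaperone of immunoglobulin assembly named for these cells, was already bright in FO cells and only 1.27 ± 0.21 log2 units higher in MZ cells (adjusted p = 0.00321). The 4 members that did not pass were Rasgrp2 (-1.94 ± 0.61, adjusted p = 0.0508, called lower under 11 of 28 alternatives), S1pr1 (1.09 ± 0.43), Hes1 (1.14 ± 0.50) and Notch2 (-0.12 ± 0.18).

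**Figure D2:**
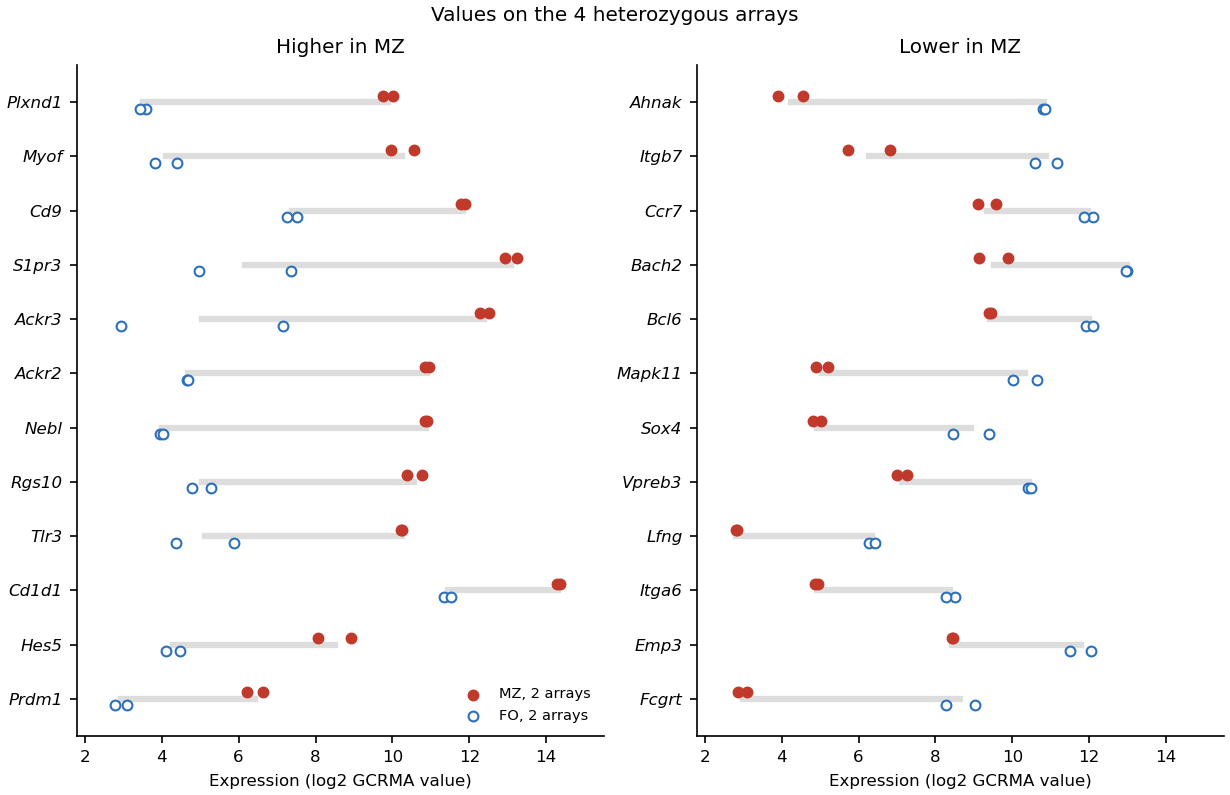
Deposited log2 values of 24 genes on the 4 heterozygous arrays: filled points are the 2 MZ arrays, open points the 2 FO arrays, and bars join the group means. The MZ and FO arrays do not overlap for any gene shown, and the 2 FO arrays of Ackr3 lie furthest apart.

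Among the 12 largest rises measured above the minimum in both cell types was that of Ackr3, an atypical receptor that takes up the chemokine CXCL12. Ackr3 had 12.28 and 12.51 on MZ arrays and 7.15 and 2.94 on FO arrays (7.34 ± 1.08, adjusted p = 0.00174). Its FO arrays lay far apart, so the size of the difference and its rank are uncertain (9.45 without FO replicate 1 and 5.24 without FO replicate 2), although both lay below the MZ arrays. Ackr2, which takes up inflammatory CC chemokines, had 10.84 and 10.96 on MZ arrays and 4.66 and 4.69 on FO arrays (6.22 ± 0.35). Nebl, which encodes the actin-binding protein nebulette, differed with little spread, at 10.89 and 10.85 on MZ arrays and 3.96 and 4.04 on FO arrays (6.87 ± 0.21, adjusted p = 7.48e-07). Second messenger and metabolite sensing genes were also among the 12 largest. Pde4d, a cyclic AMP phosphodiesterase, was 6.22 ± 0.43 log2 units higher and Ffar2, a receptor for short-chain fatty acids, 5.88 ± 0.57. Smyd2, a lysine methyltransferase, was 5.11 ± 0.34 higher and Oosp1 4.95 ± 0.27. Of the genes near the minimum in FO cells, the 6 largest rises were in Tsga13 (10.77 and 11.07 on MZ arrays), Asb2, Tbc1d9 (9.78 and 9.90), AF067061 (9.15 and 8.77), Pla2g7 (8.12 and 8.85) and Rundc3b (8.75 and 8.38). Pla2g7 encodes the secreted phospholipase that inactivates platelet-activating factor.

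Components of the NOTCH2 pathway did not move as a block. Of 25 tested members, 3 were called higher and 5 lower, and the median was -0.00 log2 units, which becomes 0.24 under quantile normalization. The receptor's own gene, Notch2, was bright and alike on all 4 arrays, at 12.53 and 12.68 on MZ arrays and 12.53 and 12.91 on FO arrays. Rbpj read 8.99 and 8.98 on MZ arrays and 8.97 and 8.69 on FO arrays (0.15 ± 0.27, adjusted p = 0.717). The differences were found in target and modifier genes. Hes5, a classical NOTCH target that encodes a repressor, had 8.92 and 8.07 on MZ arrays and 4.47 and 4.10 on FO arrays (4.21 ± 0.67, adjusted p = 0.00259), and its second probe set was also higher. The deltex gene Dtx4 had 8.04 and 8.37 on MZ arrays and 5.83 and 5.90 on FO arrays (2.34 ± 0.21, adjusted p = 1.10e-04). Dtx1, a deltex gene that NOTCH signalling induces, had 13.19 and 13.48 on MZ arrays and 10.94 and 11.13 on FO arrays by its brighter probe set (2.30 ± 0.29, adjusted p = 6.75e-04). A dimmer probe set of Dtx1 differed in the opposite direction, at 4.18 and 4.09 on MZ arrays and 6.36 and 6.87 on FO arrays, so the direction for Dtx1 rests on the choice of probe set.

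Not all NOTCH target genes were higher. Nrarp, a target and feedback inhibitor of NOTCH, lay near the minimum on MZ arrays, at 2.39 and 2.39, and had 4.89 and 4.81 on FO arrays (-2.46 ± 0.14, adjusted p = 9.09e-06). Lfng, a glycosyltransferase that changes how NOTCH receptors bind their ligands, had 2.81 and 2.84 on MZ arrays and 6.27 and 6.42 on FO arrays (-3.52 ± 0.22, adjusted p = 1.67e-05). The other lower calls, in Maml1, Dtx2 and Mfng, were between -0.94 and -0.67 and did not survive the loss of 1 array: without MZ replicate 1 their adjusted p was 0.0965, 0.0863 and 0.174, and without FO replicate 1 it was 0.0739, 0.1003 and 0.0681. Maml1 and Mfng were called without MZ replicate 2, where Dtx2 was not (adjusted p = 0.0712), and without FO replicate 2 Mfng was lost (adjusted p = 0.129).

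The promoters of Hes5, Cr2 and S1pr3 are shown for a NOTCH target, the gene used for the MZ gate and an MZ homing receptor, all higher in MZ cells, with and without a match to the RBPJ motif. The 250 bases before the start of each gene, from RefSeq on GRCm38.p6, were searched for TGGGAA on both strands, which is TTCCCA on the opposite one and is the core of the RBPJ motif. Capitals mark the matches. The Hes5 window, at chr4:154960673-154960922 on the plus strand, holds 2 of them, which begin 226 and 82 bases before the start, and the Cr2 window, at chr1:195176720-195176969 on the minus strand, holds 1, which begins 220 bases before it. The S1pr3 window, at chr13:51408368-51408617 on the plus strand, holds 0.
Hes5: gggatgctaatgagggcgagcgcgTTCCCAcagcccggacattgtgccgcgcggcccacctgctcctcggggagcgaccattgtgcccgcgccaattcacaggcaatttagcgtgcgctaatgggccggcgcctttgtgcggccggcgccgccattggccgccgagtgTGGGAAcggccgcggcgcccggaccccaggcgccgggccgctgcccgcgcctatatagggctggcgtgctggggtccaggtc
Cr2: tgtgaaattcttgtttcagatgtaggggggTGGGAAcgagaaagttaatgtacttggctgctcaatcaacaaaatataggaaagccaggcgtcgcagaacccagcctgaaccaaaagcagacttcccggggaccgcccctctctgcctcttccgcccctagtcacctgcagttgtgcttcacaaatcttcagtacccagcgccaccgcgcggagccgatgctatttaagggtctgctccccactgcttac
S1pr3: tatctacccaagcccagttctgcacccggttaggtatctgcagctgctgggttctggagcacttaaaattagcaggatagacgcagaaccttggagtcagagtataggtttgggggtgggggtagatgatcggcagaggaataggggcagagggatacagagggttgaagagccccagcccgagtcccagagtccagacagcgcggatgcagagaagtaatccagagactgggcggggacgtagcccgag
The motif was in the windows of 8 of 19 NOTCH2 pathway genes, among them Lfng and Dtx2, which were lower, and in 5 of 18 of the identity genes, and it was not in those of Nrarp and Dtx1. Matches of this length are common. They occurred in 21.6% of 32851 promoter windows, and by gene in 24.5% of those called higher, in 21.1% of those called lower and in 22.9% of all genes tested with a window.

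Receptors that position B cells in the spleen were called in both directions, at shares near those of all genes tested. Of 23 tested members of the S1P receptor and homing list, 3 were called higher and 4 lower, with a median of -0.80. Of all genes tested, 9.94% were called higher and 13.3% lower. S1pr3, a receptor for sphingosine 1-phosphate, had 13.24 and 12.92 on MZ arrays and 4.97 and 7.37 on FO arrays (6.91 ± 0.81, adjusted p = 4.76e-04), and its second probe set was higher by 7.38. Rgs10, a GTPase-activating protein that damps G protein signalling, had 10.76 and 10.37 on MZ arrays and 5.29 and 4.79 on FO arrays (5.52 ± 0.31, adjusted p = 9.40e-06). In the other direction, Ccr7, which guides cells to the T zone and into lymph nodes, had 9.10 and 9.57 on MZ arrays and 12.10 and 11.85 on FO arrays (-2.64 ± 0.46, adjusted p = 0.00420). Without MZ replicate 1, or without FO replicate 2, 4 of these 7 calls were kept.

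Adhesion molecules likewise differed in both directions. Of 32 tested members of the integrin and adhesion list, 8 were called higher and 7 lower, with a median of 0.02, and 14 of the 15 calls were kept without each of the 4 heterozygous arrays in turn. Itgb7, the beta chain of the gut-homing integrin that binds MAdCAM-1, had 5.72 and 6.82 on MZ arrays and 10.59 and 11.16 on FO arrays (-4.61 ± 0.39, adjusted p = 7.61e-05). Itga6, an alpha chain of laminin receptors, had 4.94 and 4.88 on MZ arrays and 8.50 and 8.27 on FO arrays (-3.47 ± 0.25). Itgb3, the beta chain of vitronectin receptors, was near the minimum on MZ arrays, at 2.61 and 2.61, and had 5.34 and 5.76 on FO arrays. Among the higher members, the tetraspanin gene Tspan15 had 7.27 and 7.56 on MZ arrays and was near the minimum on FO arrays, at 2.37 and 2.21 (5.12 ± 0.19, adjusted p = 1.22e-06).

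Of 20 tested members of the Toll-like receptor list, 3 were called higher and 2 lower, a share close to the 23.2% called among all genes. The list median was 0.20, against -0.17 for all genes tested. Large rises were found in single members. Tlr3, a receptor for double-stranded RNA, had 10.24 and 10.24 on MZ arrays and 4.37 and 5.88 on FO arrays (5.12 ± 0.71, adjusted p = 0.00131). Ly96, the MD-2 subunit that TLR4 needs to bind lipopolysaccharide, had 9.44 and 9.49 on MZ arrays and 6.28 and 7.01 on FO arrays (2.82 ± 0.25, adjusted p = 1.07e-04). These were the 2 calls of the 5 that were kept without MZ replicate 1 and without FO replicate 1.

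In the list of complement and lipid antigen genes, 6 of 18 tested members were called higher and 4 lower. The complement regulators moved apart. Cd59a, which blocks the membrane attack complex, had 6.76 and 6.51 on MZ arrays and was near the minimum on FO arrays, at 2.25 and 2.25 (4.39 ± 0.18, adjusted p = 2.08e-06). Cd55, which speeds the decay of complement convertases, was lower, at 11.06 and 10.96 on MZ arrays and 13.85 and 13.64 on FO arrays (-2.73 ± 0.19, adjusted p = 2.55e-05), as it was by all 3 of its probe sets.

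Regulators of plasma cell fate differed in both directions. Of 14 tested members, 2 were called higher and 4 lower, and all 6 calls were kept without each of the 4 heterozygous arrays in turn. Prdm1, which encodes the plasma cell regulator BLIMP-1, had 6.21 and 6.64 on MZ arrays and 3.10 and 2.79 on FO arrays (3.48 ± 0.37, adjusted p = 2.81e-04). Bach2, a repressor of Prdm1, had 9.13 and 9.89 on MZ arrays and 12.99 and 12.96 on FO arrays (-3.46 ± 0.36, adjusted p = 2.23e-04), and 3 of its probe sets were lower. Bcl6, the other repressor of Prdm1 in the list, was lower as given above, while the plasma cell surface marker gene Sdc1 was also lower (-5.01).

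Genes reported elsewhere as targets of BCL6 repression were mixed, with 6 of 23 called higher and 1 lower and a median of 0.11. Of all genes tested, 9.94% were higher and 13.3% lower. Those higher included Prdm1, Cd80, Id2 and Ptpn22. Id2, which inhibits E proteins, had 10.09 and 10.67 on MZ arrays and 8.47 and 7.37 on FO arrays (2.46 ± 0.45, adjusted p = 0.00551). Ptpn22, a phosphatase that restrains antigen receptor signalling, had 10.77 and 11.28 on MZ arrays and 9.01 and 9.74 on FO arrays (1.65 ± 0.32, adjusted p = 0.00667). Without MZ replicate 1, 4 of these 7 calls were kept. The list of Bcl6 and its corepressors held 0 higher and 3 lower calls among 19, against 13.3% lower of all genes; 1 of the 3 was kept without FO replicate 1, 2 without each of the other heterozygous arrays, and Bcl6 alone in all 4 fits.

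Both ligands of CD28 were higher in MZ cells, while Cd200 and Cd83 were lower. Cd80, a ligand of CD28 and CTLA-4, had 5.10 and 5.16 on MZ arrays and lay at the minimum on both FO arrays (2.92 ± 0.19). Cd86, its relative, was measured in both, at 8.77 and 9.19 on MZ arrays and 7.61 and 7.64 on FO arrays (1.36 ± 0.19, adjusted p = 0.00114). Cd200, the ligand of an inhibitory receptor on myeloid cells, had 6.47 and 6.74 on MZ arrays and 9.62 and 10.46 on FO arrays (-3.44 ± 0.39, adjusted p = 3.93e-04). Cd83, which stabilizes MHC class II at the surface, was lower (-1.54 ± 0.18). The whole costimulation and MHC class II list had 3 of 24 members higher and 6 lower, and 3 higher and 2 lower under quantile normalization. Of these 9 calls, 5 were kept without MZ replicate 1, 4 without MZ replicate 2 and 5 without FO replicate 2.

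Cell cycle genes were called higher more often than lower, but most calls depended on single arrays. Of 40 tested members of the replication and mitosis list, 10 were called higher and 2 lower, with a median of 0.67 log2 units, against 1.56 in homozygous deletion and 1.05 in wild-type arrays. E2f1, which activates S phase genes, had 5.53 and 5.39 on MZ arrays and 3.53 and 3.53 on FO arrays (1.93 ± 0.14, adjusted p = 2.72e-05). The 2 lower members hold cells in or control entry from G1: Cdkn2d, a kinase inhibitor, with 7.17 and 6.80 on MZ arrays and 9.67 and 9.98 on FO arrays (-2.84 ± 0.43, adjusted p = 0.00199), and Ccnd3, cyclin D3 (-1.27 ± 0.22, adjusted p = 0.00438). Only 4 of the 12 calls were kept without MZ replicate 1, 4 without MZ replicate 2, 4 without FO replicate 1 and 4 without FO replicate 2. Of the calls kept in all of these 4 fits, 2 were higher and 2 lower, so the excess of higher calls was not seen among them. Those lost with any 1 array included Aurkb, a mitotic kinase, with 6.77 and 6.83 on MZ arrays and 4.69 and 4.43 on FO arrays, whose adjusted p was 0.0225 with all arrays and between 0.0776 and 0.104 without 1 of the 4.

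The follicular identity genes, a list also chosen with earlier results of these data known, were lower in MZ cells as a group. Of 14 tested, 0 were called higher and 9 lower, with a median of -2.02 log2 units. Fcer2a, used for the gates, was 1 of them. Besides Itgb7, Ccr7 and Cd200, these included Zfp318, a zinc finger protein needed for IgD expression, with 9.57 and 9.78 on MZ arrays and 12.02 and 12.19 on FO arrays (-2.43 ± 0.18, adjusted p = 3.85e-05). Cmah, which makes the sialic acid Neu5Gc, had 9.77 and 10.05 on MZ arrays and 12.04 and 12.15 on FO arrays (-2.18 ± 0.19). Satb1, a chromatin organizer (-1.86 ± 0.20), and Fcmr, the receptor for IgM (-1.34 ± 0.17), also were lower. Members that did not pass were Cr1l, Icosl, Foxp1, Cxcr5 and Pou2af1, and among them the follicle-homing receptor gene Cxcr5 spread widely in FO cells, at 12.41 and 12.53 on MZ arrays and 10.84 and 12.62 on FO arrays.

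Most transcription factors were not called, and the calls made were mostly lower, with fewer after rescaling. Of 29 tested members of the list of Id proteins, E proteins and other B cell transcription factors, 1 was higher (Id2) and 9 were lower, with a median of -0.78, and 1 higher and 5 lower under quantile normalization. Besides Bach2, Mef2c, which acts downstream of antigen receptor signals, had 11.58 and 11.68 on MZ arrays and 13.15 and 12.98 on FO arrays (-1.44 ± 0.15, adjusted p = 2.10e-04), and its 5 probe sets all were lower. Many of the other calls were small: 3 of the 10 were kept without MZ replicate 1, 4 without FO replicate 1 and 6 without FO replicate 2.

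Most tested genes of the transitional stage, from which both mature populations arise, were lower in MZ than in FO cells. AA4.1-positive cells had been excluded from both gates. Of 9 tested, 0 were higher and 6 lower, Cd93 among them, with a median of -1.93, and the 6 calls were kept without each of the 4 heterozygous arrays in turn. Sox4, a transcription factor of early B cells, had 4.82 and 5.03 on MZ arrays and 9.39 and 8.47 on FO arrays (-4.00 ± 0.42, adjusted p = 2.55e-04). Vpreb3, a chaperone-like protein of immature B cells, had 7.01 and 7.25 on MZ arrays and 10.41 and 10.48 on FO arrays (-3.31 ± 0.32, adjusted p = 1.69e-04). Akap12, a scaffold for protein kinase A, was lower too (-3.78 ± 0.54). Cnn3, an actin-binding calponin, was bright in both, at 12.33 and 12.38 on MZ arrays and 14.13 and 14.23 on FO arrays (-1.82 ± 0.13). Of the 9 members, 2 had a positive difference, and neither was called. Cd24a had 14.74 and 14.62 on MZ arrays and 14.33 and 14.24 on FO arrays. Myb was mixed, at 6.00 and 6.47 on MZ arrays and 7.07 and 5.26 on FO arrays. Earlier markers of the list, Rag1, Rag2, Dntt and Vpreb1, lay near the minimum on all 4 arrays.

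Genes of memory-type B cells were called lower more often than higher, with 3 of 19 called higher and 9 lower and a median of -1.22. Ahnak, which encodes a giant scaffold protein, had 3.91 and 4.55 on MZ arrays and 10.80 and 10.84 on FO arrays, the largest fall among genes measured in both (-6.59 ± 0.53, adjusted p = 5.92e-05). Emp3, a small membrane protein, had 8.44 and 8.44 on MZ arrays and 11.51 and 12.05 on FO arrays (-3.33 ± 0.24). S100a10, which pairs with annexin A2, differed by -2.16 ± 0.21 and Anxa2 itself by -2.64 ± 0.28. Plac8 went the other way, at 14.64 and 14.64 on MZ arrays and 13.004 and 13.119 on FO arrays (1.58 ± 0.15, adjusted p = 1.43e-04). The B1 cell list, which shares members with this one, had 5 of 11 higher and 4 lower.

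The remaining large falls were in several kinds of gene. Gad1, the enzyme that makes GABA, had 3.42 and 3.47 on MZ arrays and 9.69 and 9.43 on FO arrays (-6.11 ± 0.49, adjusted p = 6.10e-05). Fcgrt, the neonatal Fc receptor, had 2.87 and 3.11 on MZ arrays and 8.27 and 9.03 on FO arrays (-5.66 ± 0.41, adjusted p = 3.36e-05). Atp1b1, a sodium pump subunit, was lower by all 4 of its probe sets that passed the filter (-5.32 ± 0.52 for the brightest). The p38 family kinase genes Mapk11 and Mapk12 both were lower: Mapk11 had 4.89 and 5.20 on MZ arrays and 10.02 and 10.65 on FO arrays, and Mapk12 was at the minimum on MZ arrays and had 6.66 and 8.25 on FO arrays. Trib2, a pseudokinase (-4.95 ± 0.59), the membrane protein gene Myadm (-5.01 ± 0.55) and Gm11346 (-4.98 ± 0.39) were lower as well. Ms4a6c was lower by its brighter probe set (-5.27 ± 0.68), while another of its probe sets differed in the opposite direction. Near the minimum in MZ cells were Wfdc17 (8.621 and 9.0002 on FO arrays), Crisp3 (8.69 and 9.35), the transcription factor gene Maf (9.37 and 7.53) and Stac2 (7.837 and 8.004).

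Some antigen receptor signalling genes were called, in both directions. Of 29 tested, 3 were called higher and 6 lower, against 9.94% and 13.3% of all genes tested, with a median of -0.14 that becomes 0.14 under quantile normalization. Rasgrp3, an exchange factor that activates RAS downstream of diacylglycerol, had 10.68 and 10.88 on MZ arrays and 12.62 and 12.74 on FO arrays (-1.90 ± 0.22, adjusted p = 4.67e-04). The coreceptor gene Cd81 was 0.97 ± 0.18 higher (adjusted p = 0.00624). Of the 9 calls, 3 were kept without MZ replicate 1, 4 without FO replicate 1 and 5 without FO replicate 2.

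Single large differences were found among inhibitory receptors and phosphoinositide 3-kinase genes. Lair1, an inhibitory receptor for collagen, had 8.001 and 7.982 on MZ arrays and was near the minimum on FO arrays, at 2.51 and 2.51 (5.48 ± 0.24, adjusted p = 2.98e-06). Pik3cg, the catalytic subunit driven by G protein-coupled receptors, had 7.11 and 7.36 on MZ arrays and 9.30 and 9.47 on FO arrays (-2.15 ± 0.19, adjusted p = 9.95e-05). Their lists had 4 higher and 3 lower of 20, and 2 higher and 4 lower of 21, against 9.94% higher and 13.3% lower of all genes tested. Of the 7 calls among inhibitory receptors, 3 were kept without MZ replicate 1, MZ replicate 2 or FO replicate 2, and 4 without FO replicate 1. The BAFF and CD40 list had 1 of 17 higher and 3 lower, of which 1 call was kept without each of the 4 heterozygous arrays in turn, and the germinal centre list had 2 of 13 higher and 3 lower, of which 3 were kept.

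Of 32 tested cytokines, their receptors and their signalling regulators, 4 were called higher and 9 lower, with a median of -0.54. The shares over all genes tested were 9.94% higher and 13.3% lower. Csf2rb, the signalling chain shared by the receptors for IL-3, IL-5 and GM-CSF, had 11.21 and 11.47 on MZ arrays and 7.92 and 8.01 on FO arrays (3.38 ± 0.20, adjusted p = 1.33e-05). Il9r had 7.08 and 7.39 on MZ arrays and 2.36 and 3.06 on FO arrays (4.52 ± 0.71, adjusted p = 0.00248). Il6ra was lower, at 5.89 and 6.59 on MZ arrays and 8.41 and 8.44 on FO arrays (-2.19 ± 0.39, adjusted p = 0.00454). Of the 13 calls, 8 were kept without MZ replicate 1 and 8 without FO replicate 2. Of 10 tested genes of the Bcl2 family, 2 were called higher and 2 lower. Lower were Bnip3 (-2.13 ± 0.28) and Bmf (-1.60 ± 0.24), which promote cell death. Higher were Bid (1.77 ± 0.44), which also promotes it, and Bcl2l2 (1.24 ± 0.28), which opposes it. The adjusted p of Bid was 0.115 without MZ replicate 2 and 0.124 without FO replicate 1. That of Bcl2l2 was 0.0670 without MZ replicate 1, 0.0611 without MZ replicate 2 and 0.0855 without FO replicate 1.

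Housekeeping, energy and secretory programmes showed few calls. Of 30 respiratory chain genes, 0 were called by limma, and their median of -0.16 lay next to that of all genes. Of 18 glycolysis genes, 2 were higher and 0 lower, and of 38 genes of the secretory pathway and the unfolded protein response, 3 were higher and 3 lower. Of 31 type I interferon response genes, 0 were higher and 2 lower, and of 32 Myc and ribosome biogenesis genes 3 were higher and 0 lower. Of 23 housekeeping genes, 2 were higher and 1 lower. These shares are below the 9.94% and 13.3% of all genes tested, apart from the higher share in glycolysis.

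**Figure D3:**
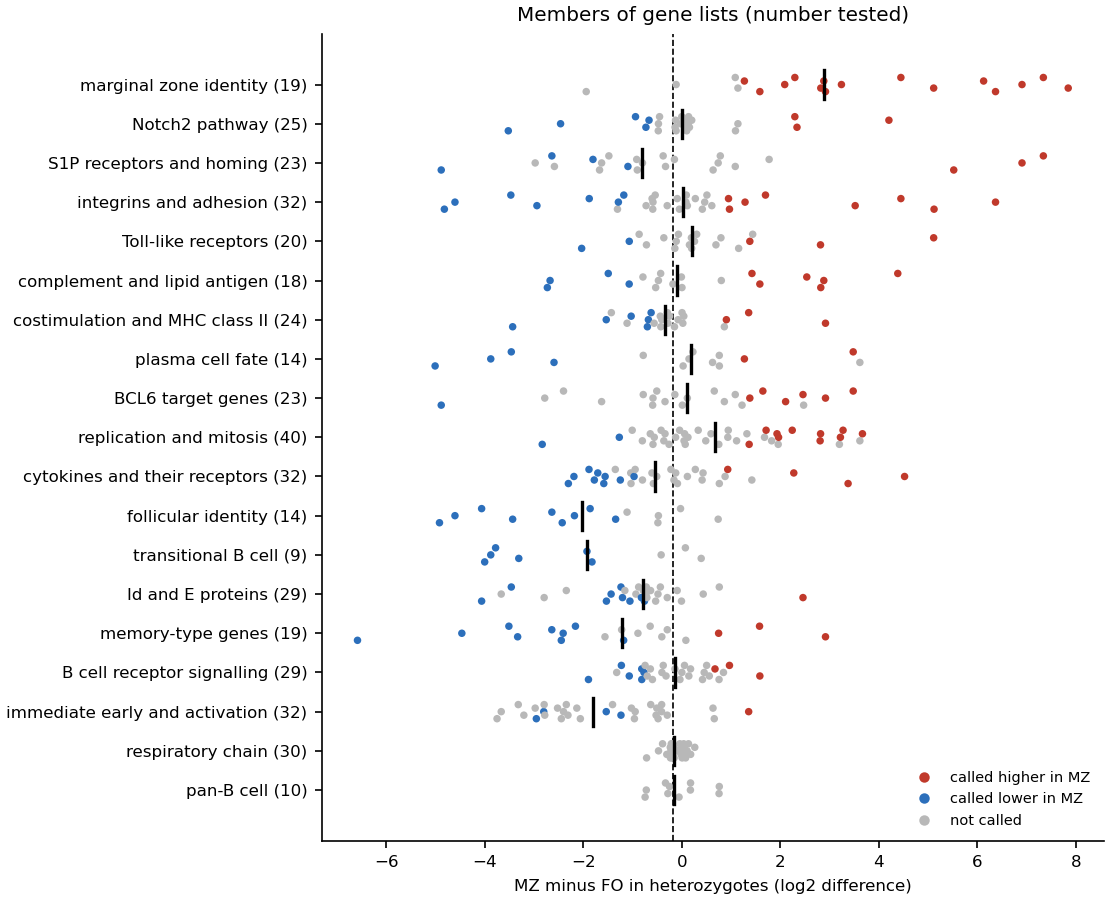
MZ minus FO difference (log2, horizontal axis) of each tested member of 19 gene lists in heterozygotes, coloured by limma call; black bars are list medians and the dashed line is the median of all genes tested, -0.17. Most marginal zone identity genes lie to the right, most follicular identity and transitional genes to the left, and respiratory chain and pan-B cell genes around the dashed line.

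Immediate early and activation genes need to be read array by array, because their level varied with more than the cell type. The mean over the 32 tested members was 7.89 and 9.33 on MZ arrays and 10.85 and 9.64 on FO arrays. MZ replicate 1 was the lowest and FO replicate 1 the highest, while the second replicates lay close together. The median difference of the list was -1.80 in heterozygotes, against -0.54 in homozygous deletion and 0.82 in wild-type, and within replicate 2 alone it was -0.48 against -3.30 within replicate 1. Ier2, a rapidly induced nuclear protein, had 8.63 and 9.89 on MZ arrays and 12.06 and 12.37 on FO arrays (-2.95 ± 0.45, adjusted p = 0.00216). In all, 1 member was called higher (Cd86) and 4 lower, of which 3 were kept without MZ replicate 1 and 3 without FO replicate 1, Cd86 included.

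Several named genes varied along with this list. Klf2, the transcription factor that controls B cell homing and is a defining follicular gene, had 9.07 and 10.26 on MZ arrays and 13.87 and 13.59 on FO arrays (-4.07 ± 0.94, adjusted p = 0.0156). The glucocorticoid- and serum-induced kinase gene Sgk1 had 4.57 and 6.83 on MZ arrays and 11.16 and 10.62 on FO arrays (-5.19 ± 1.08, adjusted p = 0.0101). Cxcr4, the receptor for CXCL12, had 5.04 and 7.11 on MZ arrays and 11.32 and 10.60 on FO arrays (-4.89 ± 1.41, adjusted p = 0.0377). Dusp4, a MAP kinase phosphatase, had 2.93 and 3.08 on MZ arrays and 9.97 and 9.14 on FO arrays (-6.55 ± 1.87, adjusted p = 0.0364). All 4 kept their direction within replicate 2, at -3.33 for Klf2, -3.79 for Sgk1, -3.49 for Cxcr4 and -6.06 for Dusp4. Without MZ replicate 1 their adjusted p was 0.109 for Klf2, 0.0804 for Sgk1, 0.217 for Cxcr4 and 0.147 for Dusp4, and without FO replicate 1 it was 0.0795, 0.0624, 0.155 and 0.148 in the same order of genes. Klf2, Cxcr4 and Dusp4 were also lost without FO replicate 2 (0.0638, 0.104 and 0.105), and Cxcr4 and Dusp4 without MZ replicate 2 (0.0589 and 0.113). The calls of Cxcr4 and Dusp4 also ended without either FO wild-type array (0.0529 and 0.0523), and that of Cxcr4 without either FO homozygous deletion array (0.0546). The part of activation state in these differences was not tested.

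**Figure D4:**
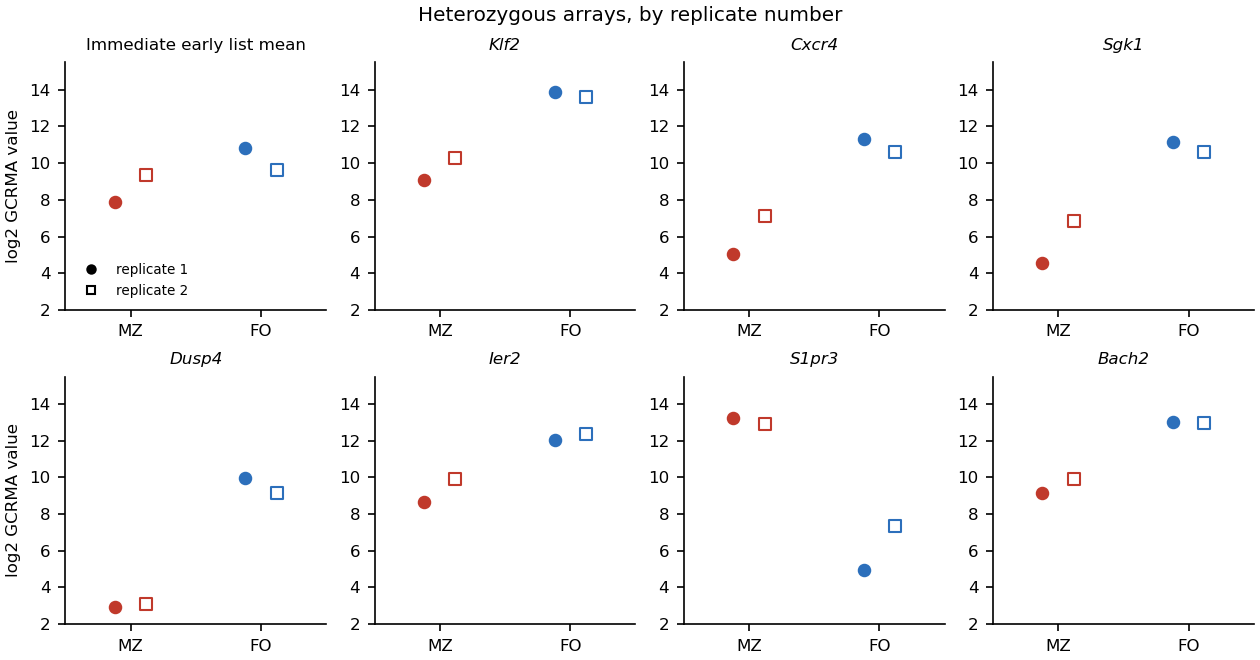
Log2 GCRMA values on the heterozygous MZ arrays (left in each panel) and FO arrays (right) for the mean of the 32 immediate early and activation genes and for 7 single genes; circles are replicate 1 and squares replicate 2. The list mean nearly meets in the second replicates (9.33 and 9.64), while Klf2, Cxcr4, Sgk1, Dusp4, Bach2 and S1pr3 stay apart in both.

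Markers of other cell types were mostly at or near the minimum. Of 12 T cell genes, 9 were near it on all 4 arrays, Cd3d, Cd3e and Cd3g among them. The summed level of the list was 11.5 to 11.7 log2 units on MZ arrays and 12.3 to 12.6 on FO arrays, most of it from Cd2. All 3 tested members were called, Lat higher and Cd2 and Cd8a lower. The Cd2 difference was -0.88 with all arrays and lay between -1.05 and -0.72 when 1 heterozygous array was left out. Cd8a had 2.65 on both MZ arrays and 4.30 on both FO arrays. All 9 platelet genes and 10 of 11 stromal genes were near the minimum. Macrophage genes were 12 of 18 above it on at least 1 array, with a summed level of 8.82 to 9.71 on MZ arrays and 7.80 to 8.61 on FO arrays, whereas Marco, Siglec1, C1qc, Ccr2, Fcgr1 and Timd4 were near the minimum. Of the 8 tested, 3 were called higher and 1 (Adgre1) lower. Spic, a transcription factor of red pulp macrophages, had 7.21 and 6.78 on MZ arrays and 4.20 and 4.73 on FO arrays. Cd68 had 6.80 and 7.34 on MZ arrays and 5.64 and 4.19 on FO arrays, and Csf1r had 5.69 and 4.30 on MZ arrays and 3.17 and 2.24 on FO arrays. Of these 4 macrophage calls, 0 were kept without MZ replicate 1 or without FO replicate 2, and 1 was kept without MZ replicate 2 and 1 without FO replicate 1. Neutrophil genes summed to 5.83 on both MZ arrays and to 5.87 and 8.97 on FO arrays, where S100a9 read 7.94 on FO replicate 1 and 2.31 on FO replicate 2. Erythroid genes summed to 9.95 to 10.4 on MZ arrays and to 11.3 to 11.6 on FO arrays, with Tfrc and Car2 the members called lower. The adjusted p of Tfrc was 0.0961 without MZ replicate 1 and 0.0822 without FO replicate 1, and that of Car2 lay between 0.0551 and 0.0633 without any 1 of the 4 arrays. Natural killer cell genes were near the minimum for 7 of 9 and dendritic cell genes for 5 of 9. Of the 1 natural killer and 2 erythroid calls, 0 were kept in all of the 4 fits that each left out 1 heterozygous array. The part of such cells in the differences above was not tested.

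The same cell type difference was measured on the arrays of the other genotypes, which did not enter the heterozygous group means. Of the 925 genes higher in heterozygous MZ cells, 922 had the same sign in homozygous deletion and 920 in wild-type arrays, and in 879 (95.0%) and 891 (96.3%) of them the arrays there did not overlap, against 50.7% and 52.5% of all genes with a positive difference. Of the 1234 lower genes, 1232 had the same sign in homozygous deletion and 1209 in wild-type, and 1201 (97.3%) and 1088 (88.2%) did not overlap there, against 65.1% and 49.0% of all genes with a negative difference. Over all genes tested the same sign was found less often, in 75.4% of positive and 88.9% of negative ones for homozygous deletion and in 72.7% and 77.2% for wild-type. All 12 arrays contributed to the spread behind the calls. They also set the choice of probe sets and the filter, including for the calls from 4 arrays below. A difference in normalization between the cell types would be shared by all genotypes and was not tested, so this is no independent replication. Calls made from the 4 heterozygous arrays alone, 774 higher and 869 lower, had the same sign in 99.6% and 99.7% for homozygous deletion and in 99.0% and 98.7% for wild-type.

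Differences between genotypes were fitted as interactions. Against homozygous deletion, limma called 1 gene (0.0107% of those tested), with 198 at an unadjusted p under 0.05: Pik3r6, a regulatory subunit of the G protein-driven phosphoinositide 3-kinase. Pik3r6 lay at the minimum on all heterozygous and wild-type arrays, and had 2.56 and 2.23 on MZ arrays and 6.71 and 6.36 on FO arrays in homozygous deletion, which gave a difference between the genotypes of 4.15 log2 units. Pik3r6 entered the fit only through the FO arrays of homozygous deletion, and its spread among heterozygous arrays was 0, so this call is a description and no test; with the filter on the 4 heterozygous arrays, 0 genes were called. Against wild-type, limma called 0 of the 9306 genes, with 388 at an unadjusted p under 0.05 and a smallest adjusted p of 0.526, which does not show that the genotypes were alike.

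Ackr3 differed widely between genotypes in size. Its MZ arrays read 12.28 and 12.51 in heterozygotes, 13.31 and 13.31 in homozygous deletion and 12.76 and 12.01 in wild-type. On FO arrays it read 7.15 and 2.94 in heterozygotes, 12.15 and 11.14 in homozygous deletion and 2.35 and 2.35 in wild-type. The MZ minus FO difference was therefore 7.34 in heterozygotes, against 1.67 in homozygous deletion and 10.03 in wild-type. The interaction did not pass for either pair (limma adjusted p = 0.999975 against homozygous deletion and 0.813 against wild-type).

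**Figure D5:**
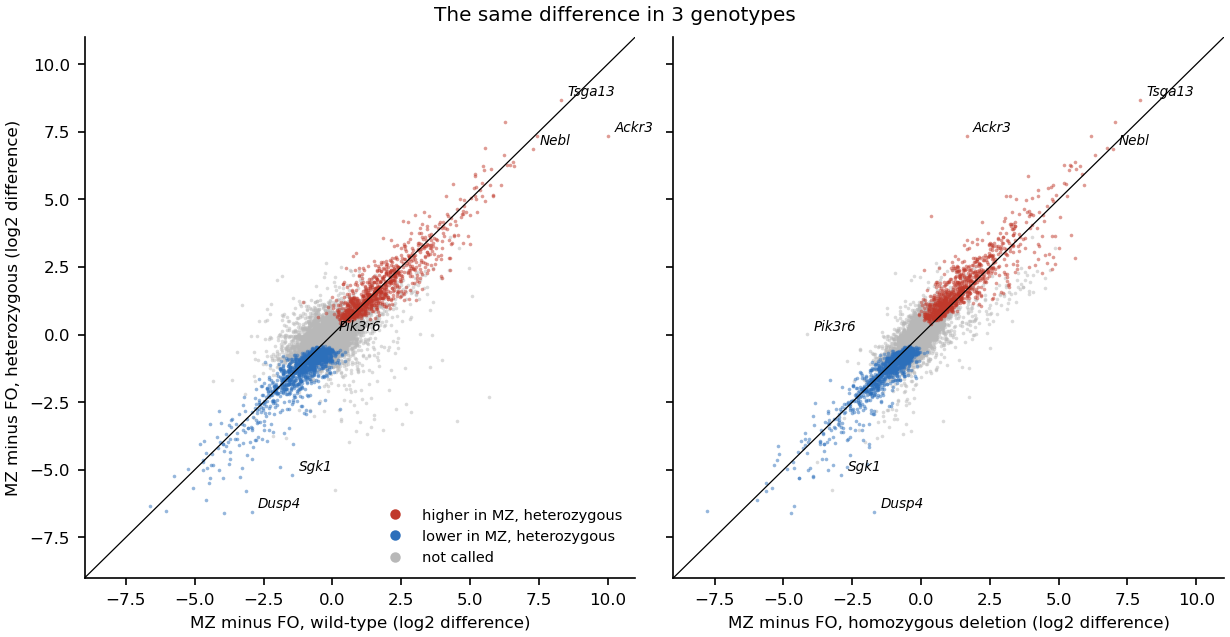
MZ minus FO difference in heterozygotes (vertical axis, log2) against that in wild-type (left panel) and homozygous deletion (right panel) for the 9306 genes tested, coloured by the limma call in heterozygotes; the line marks equal differences. Most called genes lie near the line in both panels, and of the genes labelled, Ackr3, Dusp4 and Pik3r6 lie furthest off it in homozygous deletion.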

How the data were processed

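Gene expression was measured on 12 one-colour Affymetrix arrays, 2 for each of 6 groups of cell type and genotype, and 4 of them carry the comparison described here. The deposited values are log2 signals per probe set, made with GCRMA, which corrects background by probe sequence, normalizes and summarizes probes, per the submitters' processing notes; values below about 2.2 do not occur, so low genes share a floor. The array design of 45101 probe sets included 34945 with 1 gene symbol, which were named through the platform annotation; 932 with several symbols and 9224 with none were left out. Each gene was represented by its brightest probe set over all arrays, and 9306 of 18193 genes with a log2 value of at least 4 on at least 2 arrays were tested. Group means of all 6 groups were fitted with limma 3.58.1 in R 4.3.3 (lmFit, eBayes), so that the 12 arrays share 1 estimate of the spread, and p-values were adjusted by Benjamini-Hochberg over all genes tested, with calls at 0.05. Two-sided tests were used throughout, and the fitting code was tested on simulated data. The small number of arrays limits the precision.

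Whether the numbers 1 and 2 of replicates pair MZ with FO arrays is not given, and the main fit used no pairing. Deviations of same-numbered MZ and FO arrays correlated at 0.12 in heterozygotes, 0.68 in homozygous deletion and -0.22 in wild-type. Named genes are those of the gates and Bcl6, the 12 largest differences in each direction above the minimum, the 6 largest in each direction from it, up to 5 of the smallest p in each list, the members of the identity and NOTCH2 lists, defining genes of other cell types and interaction genes; others named were chosen after their values were seen. The lists and the comparison were chosen with earlier results of these data known.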

Additional observations from a re-analysis of the deposited data

Results flagged for a closer look

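The MZ minus FO difference of Pik3r6 differed between heterozygotes and homozygous deletion by 4.15 log2 units and was called in limma's interaction fit. The gene passed the filter only through the FO arrays of homozygous deletion and lay at the minimum on all heterozygous arrays, so the call is given as a description and is no test. Rbpj was 0.15 log2 units above FO cells in MZ cells of heterozygotes and -0.22 in homozygous deletion, with both arrays of each genotype on opposite sides; this difference was not tested beyond the interaction fit over all genes, where it was not called.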

How the results depend on the processing

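Several of the 29 alternatives changed a count of calls by over 1.5 times, among them leaving out MZ replicate 1, FO replicate 1 or FO replicate 2. Without a filter on low values 8097 of 18193 genes were called in heterozygotes, 5957 higher and 2140 lower, with a median over all genes of 0.0066, the difference between the minimum values of MZ and FO arrays, and the interactions gave 4 calls against wild-type and 5 against homozygous deletion. Leaving out 1 array gave 1081 calls (without MZ replicate 1) to 2555 (without either MZ wild-type array), with 1285 without FO replicate 1 and 1292 without FO replicate 2. For the interaction with wild-type it gave 0 to 65, with 65 found without MZ wild-type replicate 2, and for that with homozygous deletion 1 to 2, where 2 calls arose without FO replicate 1 or either MZ wild-type array. Without MZ wild-type replicate 2, that group rested on replicate 1 alone, whose Gapdh 3' minus 5' difference was 6.90. The part of RNA integrity in those calls against wild-type was not tested. The interaction with homozygous deletion gave 0 calls with the filter on the 4 heterozygous arrays or with only genes above the minimum. Both of these settings drop Pik3r6. From 8 arrays this interaction gave 2 calls. The replicate block gave 2038 calls, against 2159 without it, and changed no count by over 1.5 times.

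Of 113 named genes that were called, 90 were kept under every alternative run, 22 were lost under at least 1 and 1, Dtx1, reversed; the other reversals were of genes not called. Of the named genes not called, 6 were called under at least 1 alternative, Rasgrp2 under 11 of 28. With the mean of all probe sets Dtx1 was -0.089 and Rbpj -0.068. Under quantile normalization Notch2 was 0.13 and Pou2af1 0.18, and centred on the genes tested they were 0.081 and 0.17. Pik3r6, at the minimum, was -0.075 when arrays were centred on all probe sets. Leaving out 1 array gave -0.15 to 1.62 for Cxcr5, -0.30 to 0.072 for Notch2 and -0.14 to 0.090 for Pou2af1. List medians near 0 changed sign with scaling: under quantile normalization and centring on the genes tested they were 0.14 and 0.057 for B cell receptor signalling, 0.17 and 0.090 for the secretory pathway, 0.17 and 0.11 for Myc and ribosome biogenesis, 0.11 and 0.034 for the respiratory chain and 0.049 and 0.035 for housekeeping. The Myc list ranged over -0.11 to 0.078 when 1 array was left out. Without a filter the medians of the B1 and transitional lists were -0.014 and 0.0066, with a filter at 6 that of the B1 list was -0.87, and with low values raised to 4 it was 0. Centring on the genes tested and testing only genes above the minimum were added after seeing the data. The cause of these changes was not tested.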

Other observations

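Some gene families held several called members in heterozygotes. These families were chosen after the values were seen, and no test was made of a family. Their counts are to be read against the 9.94% higher and 13.3% lower calls among all genes tested. Among atypical chemokine receptors, Ackr2 and Ackr3 were higher and Ackr1 was lower in MZ cells. Among 9 tested tetraspanins of the Tspan family, 3 were higher (Tspan15, Tspan31 and Tspan33) and 0 lower. Tspan31 was not called with the mean of all probe sets, and 1 of its 3 probe sets differed in the opposite direction. Tspan33 was not called with low values raised to 4. Among 7 mitogen-activated protein kinases, 0 were higher and 2 lower, both of the p38 family (Mapk11 and Mapk12). Among 7 Ms4a genes, relatives of the gene for CD20, 1 was higher (Ms4a7) and 4 were lower.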
